A study of Mus musculus with 12 samples.

Results

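The genes described here are the 10 enzymes and regulators of de novo lipogenesis Acaca, Acacb, Acly, Fasn, Scd1, Scd2, Elovl6, Mlxipl, Srebf1 and Thrsp. They were chosen by gene symbol, with earlier results of these data known, from a table of 19547 genes. All 10 were present, and all 10 were among the 18551 genes that passed the filter on low counts, with a smallest single count of 47 reads (Thrsp in control replicate 4). RNA was measured in 12 mouse fat graft libraries from 3 groups of 4. Every group came from C57BL/6 wild-type mice aged 16 weeks, with adipose tissue taken from grafts at 8 weeks. Control grafts are labelled as control fat grafts, with no addition named. Grafts of the CAL group (the usual abbreviation of cell-assisted lipotransfer) had ASC (stem or stromal cells of adipose tissue) added, and CAL_Dll4i grafts had ASC added together with inhibition of Dll4, an endothelial Notch ligand. The agent used against Dll4, the source of the ASC and whether each library came from its own animal are unstated in the labels. The p-values therefore measure spread between these samples alone, which may be partly technical.

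De novo lipogenesis builds fatty acids from surplus carbohydrate in the cytosol, chiefly in liver and adipose tissue. ATP citrate lyase (Acly) splits citrate into acetyl-CoA, the acetyl-CoA carboxylases (Acaca, Acacb) turn it into malonyl-CoA, and fatty acid synthase (Fasn) extends this to palmitate. Elovl6 then lengthens palmitate, and the stearoyl-CoA desaturases (Scd1, Scd2) place a double bond in the product. Transcription of these enzymes is known to be driven by ChREBP (Mlxipl), which senses glucose metabolites, and by SREBP-1 (Srebf1), which responds to insulin and sterol status, while Thrsp (Spot 14) is a small protein that promotes lipogenesis.

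Total counts per library ran from 55883051 to 70804141, and libraries correlated across genes at r = 0.975 to 0.989 within groups and 0.970 to 0.989 between groups. Dll4 itself had 4.97 to 6.95 CPM (read counts scaled to library size) in control, 3.01 to 4.22 in CAL and 3.98 to 4.95 in CAL_Dll4i libraries, which does not test the treatment because the means of inhibition is not stated. Defining transcripts of the labelled tissue were present: Adipoq, the gene of adiponectin, stood at 35.8 to 172 CPM and Plin1, a lipid droplet coat gene, at 13.0 to 83.1 CPM across the 12 libraries. All 19 listed adipocyte markers were measured. Other tissues that make fatty acids were also read. Of 9 mammary epithelium markers only 4 were in the table, with a summed level of 7.52 to 71.9 CPM. This sum reached 54.0 CPM in control and 71.9 in CAL_Dll4i, both within the range of Plin1. Of 3 hepatocyte markers only Alb was in the table, at 0.0561 to 2.58 CPM. Macrophage genes were abundant, with Lyz2 and Mrc1 leading a summed 3809 to 4524 CPM. Krt5 and Krt14, listed as keratinocyte genes, set some libraries apart. Krt5 stood at 56.4 and 99.3 CPM in control replicates 2 and 4 and at 25.9 in CAL replicate 3. It stood at 157, 55.3 and 60.0 in CAL_Dll4i replicates 1, 2 and 4, against at most 6.26 CPM in the other 6. Of the same list, Krt10 stayed at 0.500 to 1.19 CPM and Awat2 at 0.166 to 0.485 in all 12 libraries. Krt79 stood at 18.0 CPM in CAL_Dll4i replicate 1, against at most 3.74 elsewhere. Epcam, listed for mammary epithelium, was highest in control replicate 4 (21.9 CPM) and CAL_Dll4i replicate 4 (27.9). Krt8 (10.9 and 13.5 CPM) and Krt18 (7.66 and 10.3) of that list were also highest there, while Csn3 was highest in CAL replicate 1 (23.1). The cell type that gave the Krt5 and Krt14 reads was not tested. Skeletal muscle RNA (Acta1) stood at 28.1 and 74.5 CPM in CAL replicates 1 and 2 and at 127 in CAL_Dll4i replicate 3, against at most 2.91 CPM elsewhere. Even so, 3 of the 6 listed muscle markers (Ckm, Myh4 and Myh1) were missing from the table. A marker missing from it therefore does not show that its tissue was absent.

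The promoters of 4 members, Fasn, Thrsp, Mlxipl and Acly, are shown. RefSeq windows on GRCm38.p6, 250 bases before to 50 bases after a start, were found for 8 of the 10 members (11 windows). 4 short patterns were searched on both strands: TCACNCCAC (a form of the sterol regulatory element bound by SREBP), CACGTG (an E-box), CCAAT (bound by NF-Y) and GGGCGG (a GC box bound by Sp1). The 250 bases before the start are printed 5′ to 3′ on the gene's strand, with every match in capitals, for Fasn (chr11:120824548-120824797, minus strand), Thrsp (chr7:97417551-97417800, minus strand), both starts of Mlxipl (chr5:135089640-135089889 and chr5:135106641-135106890, plus strand) and Acly (chr11:100528001-100528250, minus strand).
Fasn: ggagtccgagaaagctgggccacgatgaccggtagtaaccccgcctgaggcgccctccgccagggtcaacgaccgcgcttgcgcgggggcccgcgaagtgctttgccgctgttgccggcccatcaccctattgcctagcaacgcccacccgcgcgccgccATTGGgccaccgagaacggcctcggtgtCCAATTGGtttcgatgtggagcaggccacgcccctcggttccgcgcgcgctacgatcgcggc
Thrsp: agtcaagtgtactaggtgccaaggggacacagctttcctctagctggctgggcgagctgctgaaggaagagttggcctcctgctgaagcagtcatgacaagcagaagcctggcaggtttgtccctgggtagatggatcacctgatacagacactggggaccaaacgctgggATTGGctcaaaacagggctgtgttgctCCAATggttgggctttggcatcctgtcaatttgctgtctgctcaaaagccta
Mlxipl start 1: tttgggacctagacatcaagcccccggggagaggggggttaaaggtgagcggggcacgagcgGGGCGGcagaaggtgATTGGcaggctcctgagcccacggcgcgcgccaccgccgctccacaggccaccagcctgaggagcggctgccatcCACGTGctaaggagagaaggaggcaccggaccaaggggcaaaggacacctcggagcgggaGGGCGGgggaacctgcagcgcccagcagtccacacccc
Mlxipl start 2: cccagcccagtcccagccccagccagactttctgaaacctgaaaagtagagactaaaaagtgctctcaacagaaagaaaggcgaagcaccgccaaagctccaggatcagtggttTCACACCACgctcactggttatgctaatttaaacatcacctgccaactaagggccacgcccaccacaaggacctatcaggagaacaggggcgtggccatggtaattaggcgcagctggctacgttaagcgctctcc
Acly: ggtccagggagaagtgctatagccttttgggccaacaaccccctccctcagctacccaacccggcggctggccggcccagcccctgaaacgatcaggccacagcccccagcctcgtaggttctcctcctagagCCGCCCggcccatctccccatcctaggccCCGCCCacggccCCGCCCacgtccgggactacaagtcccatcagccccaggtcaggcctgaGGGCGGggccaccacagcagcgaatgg
Fasn held 3 CCAAT matches, whose first bases lay at -90, -62 and -59 from the start, the last pair overlapping on opposite strands, and Thrsp held 2, at -79 and -52. The upstream start of Mlxipl had the only E-box among the 11 windows, at -98. It also had a CCAAT match at -173 and GC boxes at -188 and -38. The downstream start of Mlxipl had the only TCACNCCAC match, at -136. Acly carried 4 GC boxes, at -117, -88, -76 and -27, with its CCAAT match lying after the start, at 38. CCAAT was present in 7 of the 11 windows (6 of the 8 members), against 37.4% of all 32851 mouse windows of the same length. GGGCGG was present in 4 windows (3 members) against 35.7%, CACGTG in 1 against 7.15% and TCACNCCAC in 1 against 1.24%. These matches describe the letters, and no binding was measured in the grafts.

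Compared per transcript length, on the deposited TPM scale (scaled for transcript length and library size), Scd1 was the most abundant of the 10 genes in all 12 libraries, with group means of 234 ± 72.8, 413 ± 44.0 and 278 ± 53.9 TPM in control, CAL and CAL_Dll4i (SD, n = 4 each). Acly followed at 123 ± 9.32, 119 ± 4.30 and 111 ± 9.69 TPM and was above Acaca in all 12 libraries. Acaca (65.8 ± 10.3 in control) and Fasn (54.9 ± 23.5) could not be ordered, since Acaca was the higher in 7 of 12 libraries. Scd2 was above Srebf1 in 11 of 12, at 48.1 ± 6.72 and 40.2 ± 8.16 TPM in control. Thrsp spanned the widest range as a ratio of highest to lowest, from 1.43 to 48.7 TPM, and lay above Acacb in 10 of 12 libraries. Acacb (4.79 ± 1.36 in control) exceeded Mlxipl (1.56 ± 1.03) in all 12, and Mlxipl exceeded Elovl6 in 10 of 12, though not in the control mean (2.10 ± 0.371 for Elovl6). Scd1 made up 39.4% ± 3.70 of the summed TPM of the 10 genes in control libraries, against 48.6% ± 2.22 in CAL and 45.7% ± 3.81 in CAL_Dll4i (SD, n = 4 each).

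**Figure D1:**
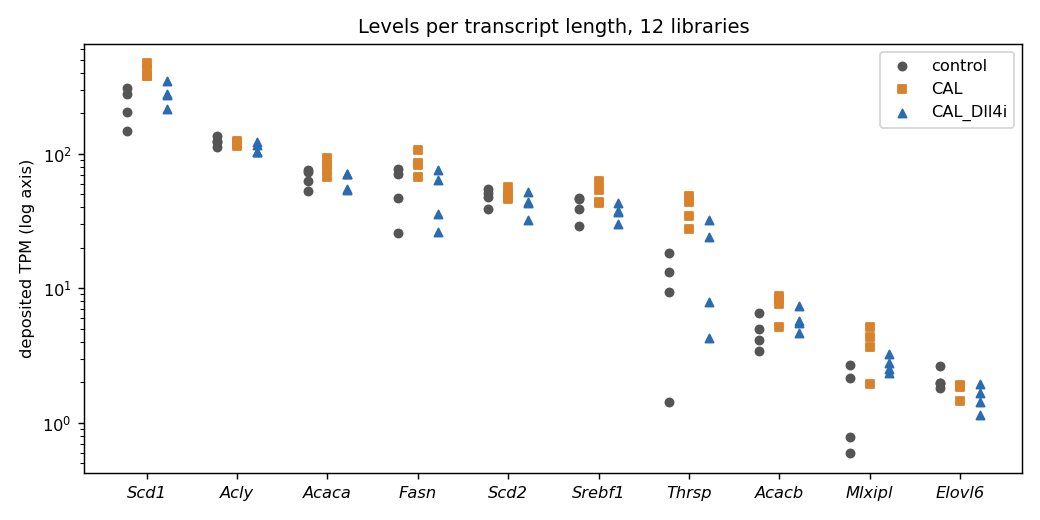
Deposited TPM of the 10 lipogenesis genes (log axis), 1 point per library, by group (control, circles; CAL, squares; CAL_Dll4i, triangles). Scd1 lies highest, between 147 and 468 TPM, and the points of Thrsp are the most scattered on this axis, between 1.43 and 48.7 TPM.

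Added ASC was compared with control, CAL_Dll4i with CAL, and CAL_Dll4i with control. The comparisons share libraries, so they are not independent of each other. In CAL grafts 8 of the 10 genes had higher estimates than in control (48.4% of all genes did), led by Thrsp, Mlxipl and Scd1, while Acly and Elovl6 had lower ones (51.6%). The median log2 fold change of the 10 was 0.51, against -0.01 over all genes. Adjusted over all 18551 genes by Benjamini-Hochberg, edgeR's quasi-likelihood test called 0 of the 10 (0.00539% of all genes were called), with adjusted p = 0.166 at the least. At an unadjusted p under 0.05, 6 were higher (Scd1, Mlxipl, Acacb, Thrsp, Acaca and Srebf1) against 7.01% of all genes, and 0 were lower against 7.57%. That count of 6 was 0 with the mean of the adipocyte markers as a covariate, 3 without control replicate 2 or without the 3 libraries with muscle RNA (CAL replicates 1 and 2 and CAL_Dll4i replicate 3), and 4 without control replicate 4, CAL replicate 1 or CAL replicate 4. The groups did not overlap for 2 of them, Scd1 and Thrsp, against 3.61% of all genes higher and 3.75% lower in that way. DESeq2 called Scd1, Mlxipl and Acacb higher (3 of 10, against 1.99% of all genes), and voom with sample weights called Scd1 (1 of 10, against 0.372%). On simulated counts for this comparison, DESeq2 made 39 false calls, edgeR 8 and voom 7.

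In CAL_Dll4i grafts all 10 genes had lower estimates than in CAL, against 48.7% of all genes (51.3% had higher ones), with a median log2 fold change of -0.36 against 0.00. None was called by edgeR (0 of 10, against 0% of all genes), by DESeq2 (0 of 10, against 0.0054%) or by voom with sample weights (0 of 10, against 0%). At an unadjusted p under 0.05 by edgeR, 3 were lower (Acaca, Srebf1 and Scd1) against 2.95% of all genes, and 0 were higher against 4.47%. The count of 3 was 0 without CAL replicate 4 or CAL_Dll4i replicate 4, 1 without CAL_Dll4i replicate 1, 2 without CAL replicate 3 or CAL_Dll4i replicate 2, and 5 without CAL_Dll4i replicate 3. The groups did not overlap for Scd1 and Srebf1 (2 of 10, against 1.76% of all genes lower and 1.58% higher in that way). The smallest adjusted p was 0.659. With the mean log2 CPM of Krt5 and Krt14 as a covariate, or with that of the adipocyte markers, 0 of the 10 were at an unadjusted p under 0.05, and 1 and 3 of the 10 estimates were higher than in CAL.

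Against control, CAL_Dll4i grafts had higher estimates for Acacb, Scd1, Mlxipl and Thrsp (4 of 10, against 49.6% of all genes) and lower ones for the other 6 (50.4%). The median log2 fold change was -0.03, against 0.00 over all genes. edgeR called 0 of the 10 (0% of all genes), DESeq2 0 (0.329%) and voom 0 (0%). At an unadjusted p under 0.05 by edgeR only Elovl6 was lower (3.06% of all genes) and 0 were higher (3.86%). These counts were 3 lower and 1 higher with the adipocyte covariate, and 1 lower and 3 higher with the Krt5 and Krt14 covariate. They were 0 lower and 3 higher without control replicate 1, and 0 lower and 1 higher without control replicate 3. They were 0 in either direction without control replicate 2 or CAL_Dll4i replicate 1, 2 or 4. No gene of the 10 was without overlap between these groups (2.41% of all genes were higher and 2.35% lower in that way). Summed over the 10 genes, libraries stood at 990 to 1661 CPM in control, 1846 to 2271 in CAL and 1224 to 1847 in CAL_Dll4i. Each CAL library therefore lay above each control library in this sum, and CAL_Dll4i overlapped both groups. Fasn and Scd1 together made up 40.5% to 61.1% of the sum in single libraries. Of the 10 genes taken singly, only Scd1 and Thrsp were without overlap between CAL and control.

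**Figure D2:**
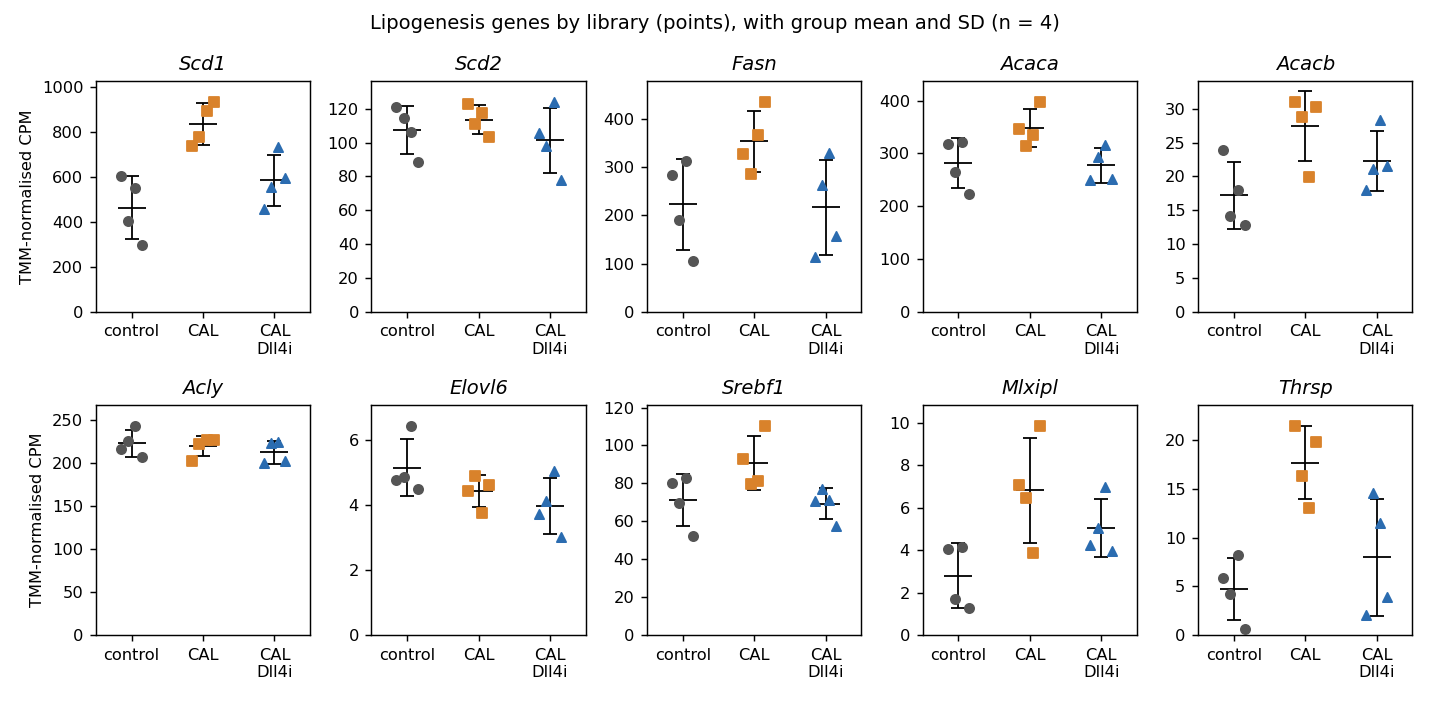
TMM-normalised CPM of each gene by library (points), with the group mean and SD (n = 4 each; linear axes that start at 0). For Scd1 and Thrsp every CAL point lies above every control point, and for Acly the 3 groups overlap between 207 and 224 CPM.

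**Figure D3:**
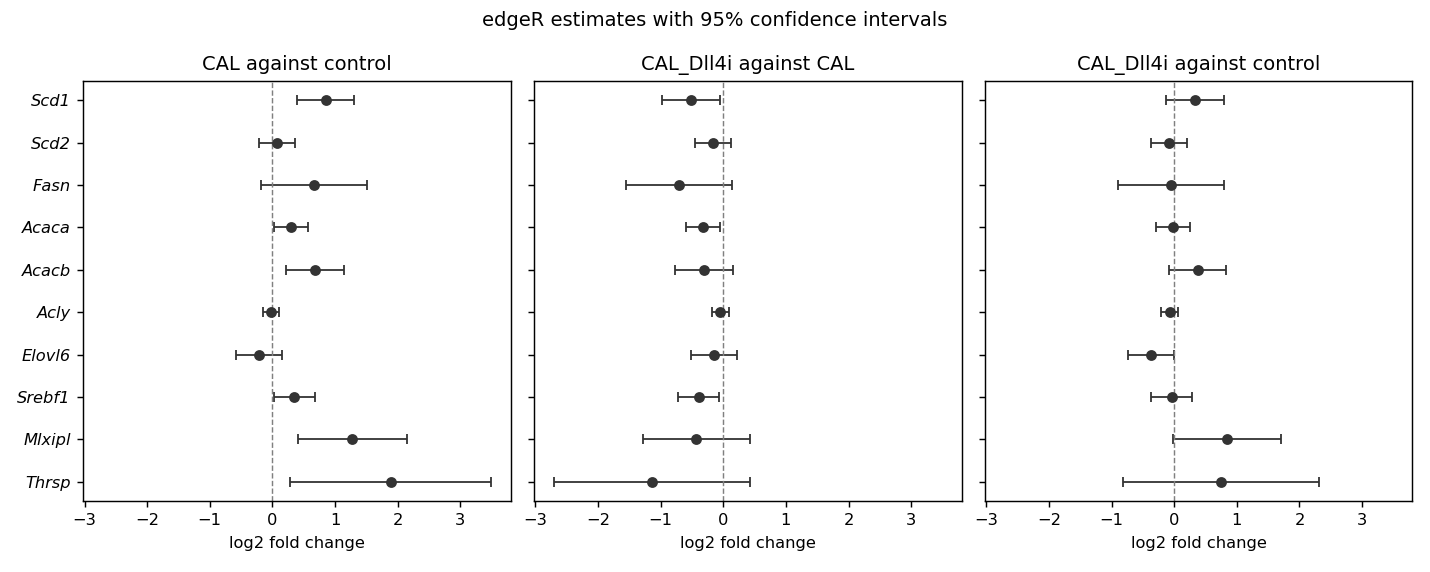
Log2 fold changes of the 10 genes by edgeR with 95% confidence intervals (bars) in the 3 comparisons; the dashed line marks no difference. Intervals of Acly are narrow and include 0 in each panel, and those of Thrsp are the widest.

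Acly, which supplies cytosolic acetyl-CoA, was the steadiest member. Control libraries 1 to 4 had 217, 226, 244 and 207 CPM, CAL libraries 203, 223, 227 and 228 and CAL_Dll4i libraries 200.4, 223, 224 and 202. The groups overlapped, though control replicate 3 lay above all CAL and CAL_Dll4i libraries, and CAL replicate 1 and CAL_Dll4i replicates 1 and 4 lay below all controls. The spread within groups was at the 17.2 percentile of all genes. Its log2 fold change was -0.02 ± 0.06 (SE) in CAL against control, with a 95% confidence interval of -0.16 to 0.11 (edgeR adjusted p = 0.907), -0.05 ± 0.06 in CAL_Dll4i against CAL (0.880) and -0.07 ± 0.06 in CAL_Dll4i against control (0.821).

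Acaca and Acacb catalyse the same carboxylation. The first is the cytosolic enzyme that feeds synthesis, and the second sits at the mitochondrial surface, where its malonyl-CoA restrains fatty acid oxidation. Acaca had 319, 265, 322 and 222 CPM in control, against 346, 314, 335 and 397 in CAL and 249, 294, 316 and 251 in CAL_Dll4i (libraries 1 to 4 of each group). The CAL libraries were high, but the lowest of them lay within the control range. The log2 fold change was 0.31 ± 0.12 in CAL against control (1.24-fold, edgeR adjusted p = 0.297) and -0.33 ± 0.12 in CAL_Dll4i against CAL (adjusted p = 0.659), and -0.02 ± 0.12 in CAL_Dll4i against control (adjusted p = 0.976).

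Acacb was the scarcer of the pair, with 23.8, 14.2, 18.0 and 12.7 CPM in control, against 31.0, 28.8, 19.9 and 30.2 in CAL and 17.9, 21.1, 28.4 and 21.5 in CAL_Dll4i. Only CAL replicate 3 among the CAL libraries fell within the control range. In CAL against control the log2 fold change was 0.68 ± 0.21 (1.60-fold), which did not pass by edgeR (adjusted p = 0.208) and passed by DESeq2 (adjusted p = 0.0422). Acacb is also the main carboxylase of skeletal muscle. In the 3 libraries with muscle RNA it stood at 31.0, 28.8 and 28.4 CPM, and in CAL replicate 4, with Acta1 at 1.58 CPM, at 30.2. Without those 3 libraries, which leaves only replicates 3 and 4 of CAL, the log2 fold change of Acacb was 0.54 ± 0.26 (edgeR adjusted p = 0.553). The part of muscle RNA in the Acacb values was not tested apart from this fit. Against CAL, CAL_Dll4i differed by -0.30 ± 0.21 (adjusted p = 0.782), and against control by 0.37 ± 0.21 (0.724).

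The log2 ratio of Acaca to Acacb counts, which does not depend on library size, was 4.06 ± 0.22 in control, 3.68 ± 0.29 in CAL and 3.65 ± 0.17 in CAL_Dll4i (SD, n = 4 each). It was lower in CAL than in control by a difference of -0.38 (two-sided exact permutation test, p = 0.0571) and in CAL_Dll4i than in control by -0.41 (exact p = 0.0857), neither of which passed. CAL_Dll4i and CAL differed by -0.03 (exact permutation p = 0.971).

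Fasn, the multi-domain synthase that makes palmitate, varied more between libraries of a group than 90.5% of genes. Its CPM were 284, 190.2, 313 and 106 in control, against 327, 285, 367 and 435 in CAL and 114, 264, 329 and 158 in CAL_Dll4i. Control replicate 4 and CAL_Dll4i replicates 1 and 4 were lowest, and CAL replicate 2 was the one CAL library within the control range. These 3 low libraries also had the highest Krt5 levels of the 12 (99.3, 157 and 60.0 CPM) and low adipocyte marker means (5.10, 6.13 and 6.03 log2 CPM), and the part of either in the Fasn values was not tested apart from the covariates given here. The log2 fold change was 0.66 ± 0.38 in CAL against control (1.58-fold, edgeR adjusted p = 0.449), -0.71 ± 0.38 in CAL_Dll4i against CAL (adjusted p = 0.711) and -0.05 ± 0.38 in CAL_Dll4i against control (adjusted p = 0.985).

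Scd1, the main desaturase of mouse adipose tissue, gave the smallest p of the 10 in CAL against control. Libraries 1 to 4 had 601, 403, 552 and 295 CPM in control, against 735, 777, 892 and 933 in CAL and 456, 554, 730.3 and 594 in CAL_Dll4i. Every CAL library lay above every control and every CAL_Dll4i library. Mean levels were 463 ± 139.9, 834 ± 93.3 and 584 ± 114 CPM (SD, n = 4 each). In CAL the level was 1.80-fold that of control, a log2 fold change of 0.85 ± 0.21 (edgeR adjusted p = 0.166), which did not pass over all genes. DESeq2 gave an adjusted p of 0.00411 and voom with sample weights 0.0436. In CAL_Dll4i the log2 fold change against CAL was -0.52 ± 0.21 (edgeR adjusted p = 0.659), and against control 0.33 ± 0.21 (adjusted p = 0.753).

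Scd2 encodes the related desaturase that is prominent in brain and in growing tissue. It lies near Scd1 on chromosome 19 (Scd2 at 44293676 to 44306864, Scd1 at 44394450 to 44407709, RefSeq on GRCm38.p6). It had 121, 115, 106 and 88.6 CPM in control, against 123, 111, 118 and 103 in CAL and 106, 97.8, 124 and 77.6 in CAL_Dll4i. The 3 groups overlapped, with log2 fold changes of 0.08 ± 0.13 (edgeR adjusted p = 0.822), -0.17 ± 0.13 (0.812) and -0.09 ± 0.13 (0.900) in the order above. Rules for assigning reads shared between Scd1, Scd2, Scd3 and Scd4 were not given in the sources used here, so the split between these paralogs is uncertain.

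The balance of the paired desaturases was tested as a ratio within each library. The log2 ratio of Scd1 to Scd2 counts was 2.06 ± 0.33 in control, 2.87 ± 0.25 in CAL and 2.53 ± 0.34 in CAL_Dll4i (SD, n = 4 each). Control libraries had 4.97, 3.51, 5.20 and 3.33 Scd1 counts per Scd2 count, CAL libraries 6.00, 7.01, 7.58 and 9.03, and CAL_Dll4i libraries 4.32, 5.66, 5.89 and 7.65. The CAL and control groups did not overlap, and CAL_Dll4i lay across both. The difference of 0.81 on the log2 scale between CAL and control had a two-sided exact permutation p of 0.0286, the smallest that 4 against 4 libraries allow, and 0.171 after adjustment over the 6 ratio comparisons. Without CAL replicate 4 it was 0.71 (exact p = 0.0571), which did not pass. CAL_Dll4i differed from CAL by -0.35 (exact permutation p = 0.171) and from control by 0.47 (exact permutation p = 0.143).

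**Figure D4:**
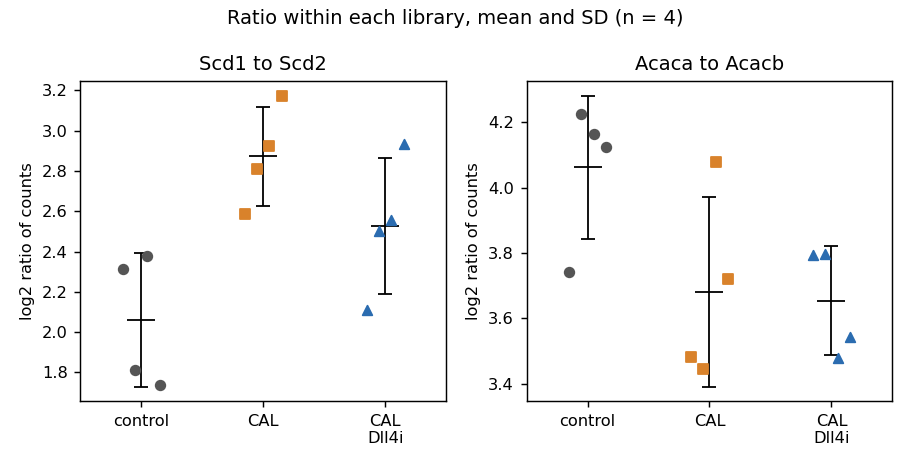
Log2 ratio of Scd1 to Scd2 counts (left) and of Acaca to Acacb counts (right) in each library (points), with the group mean and SD (n = 4 each). All CAL points of the Scd1 to Scd2 ratio lie above the control points, whose highest is 2.38, and the Acaca to Acacb ratios overlap between groups.

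Elovl6, which elongates palmitate to stearate, was the scarcest enzyme and followed another course. It had 4.78, 4.85, 6.44 and 4.50 CPM in control, against 4.42, 4.90, 3.75 and 4.62 in CAL and 3.71, 4.11, 5.06 and 3.02 in CAL_Dll4i. Control replicate 3 was the highest library and CAL_Dll4i replicate 4 the lowest, and the groups overlapped. Its log2 fold change was -0.22 ± 0.17 in CAL against control (edgeR adjusted p = 0.584), -0.15 ± 0.17 in CAL_Dll4i against CAL (0.866) and -0.37 ± 0.17 in CAL_Dll4i against control (adjusted p = 0.714). An annotated antisense gene, Gm35986, overlaps its exons, and the labels do not say whether counting used the strand. The same limit holds for Mlxipl, whose exons overlap those of antisense Gm43500, and for Srebf1, whose exons overlap those of Rai1 on the opposite strand.

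Mlxipl, the glucose-responsive activator of Fasn, Acaca and Scd1 genes, was a low transcript. Its levels were 4.07, 1.72, 4.16 and 1.30 CPM in control, against 7.06, 6.46, 3.88 and 9.85 in CAL and 4.23, 5.04, 6.99 and 3.99 in CAL_Dll4i. CAL replicate 3 was the only CAL library within the control range, and control replicates 2 and 4 were the lowest of the 12. In CAL the level was 2.42-fold that of control, a log2 fold change of 1.28 ± 0.40 (edgeR adjusted p = 0.207; DESeq2 adjusted p = 0.0301). Against CAL, CAL_Dll4i stood at -0.43 ± 0.39 (adjusted p = 0.841), and against control at 0.85 ± 0.39 (adjusted p = 0.716).

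Srebf1 encodes SREBP-1, whose SREBP-1c form drives lipogenic genes under insulin. The counts do not separate its forms. It had 80.4, 69.5, 82.8 and 52.4 CPM in control, against 92.9, 79.6, 81.1 and 110.4 in CAL and 70.7, 77.2, 71.5 and 57.8 in CAL_Dll4i. All CAL_Dll4i libraries lay below all CAL libraries, while CAL and control overlapped. The log2 fold change was 0.35 ± 0.15 in CAL against control (1.28-fold, edgeR adjusted p = 0.317), -0.39 ± 0.15 in CAL_Dll4i against CAL (adjusted p = 0.659) and -0.04 ± 0.15 in CAL_Dll4i against control (adjusted p = 0.963).

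Thrsp, a thyroid hormone and carbohydrate responsive gene, had the largest estimate and the largest scatter, with a spread within groups on the log2 scale above that of 98.4% of genes. It stood at 5.90, 4.27, 8.21 and 0.659 CPM in control, against 21.4, 16.3, 13.1 and 19.8 in CAL and 2.05, 14.6, 11.5 and 3.92 in CAL_Dll4i. The lowest CAL library exceeded the highest control library, whereas CAL_Dll4i split into replicates 2 and 3 near the CAL range and replicates 1 and 4 within the control range. In CAL the level was 3.71-fold that of control (95% confidence interval 1.22 to 11.3), a log2 fold change of 1.89 ± 0.72 (edgeR adjusted p = 0.281). CAL_Dll4i differed from CAL by -1.14 ± 0.71 (adjusted p = 0.757) and from control by 0.75 ± 0.71 (adjusted p = 0.832).

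Adipocyte transcripts were set beside the members. Of 19 adipocyte markers, 18 had higher estimates in CAL than in control (48.4% of all genes), 15 at an unadjusted p under 0.05 (7.01%). In CAL_Dll4i 18 had lower estimates than in CAL (48.7%), with 2 lower and 1 higher at that p (2.95% and 4.47%). Against control 18 had higher estimates in CAL_Dll4i (49.6%), 2 at that p (3.86%). edgeR called 0 of the 19 in each comparison (0.00539%, 0% and 0% of all genes). In CAL against control DESeq2 called Plin4, Car3, Lpl and Pck1 higher (1.99% of all genes), and voom called Lpl and Pck1 (0.372%). The mean log2 CPM of the 19, none of them a lipogenesis member, was 5.95 ± 0.66 in control, 6.83 ± 0.32 in CAL and 6.31 ± 0.27 in CAL_Dll4i (SD, n = 4 each), with overlapping groups, and their summed level was 2920 to 4492, 4567 to 5588 and 3918 to 4569 CPM. In whole grafts, fewer adipocytes and less RNA per adipocyte cannot be told apart. Over the 12 libraries 7 members followed this mean closely: Pearson's r was 0.93 for Acaca, 0.92 for Mlxipl and Thrsp, 0.91 for Srebf1, 0.90 for Scd1, 0.87 for Fasn and 0.83 for Acacb. Spearman's rho for these 7 ran from 0.70 (Acacb) to 0.94 (Srebf1), and permutation tests of r and rho gave p of 0.0144 or less, at most 0.0206 after adjustment over the 10 genes. Scd2 (r = 0.44, rho = 0.38), Acly (0.39, 0.48) and Elovl6 (0.18, 0.18) did not pass, with permutation p of 0.116 to 0.571 (0.145 to 0.571 adjusted). By r, the 7 ranked at the 98.1 (Acacb) to 99.4 (Acaca) percentile of all genes. Scd2 ranked at the 88.1, Acly at the 85.5 and Elovl6 at the 70.7 percentile. The libraries form 3 treatment groups, which these permutation p do not take into account. With group means removed, r was 0.68 (Acacb) to 0.96 (Acaca) for the 7, and 0.44 for Scd2, 0.64 for Acly and 0.63 for Elovl6. Without the 2 libraries farthest from the median marker level, control replicates 2 and 4, r for the 7 ran from 0.60 (Acacb) to 0.93 (Acaca).

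**Figure D5:**
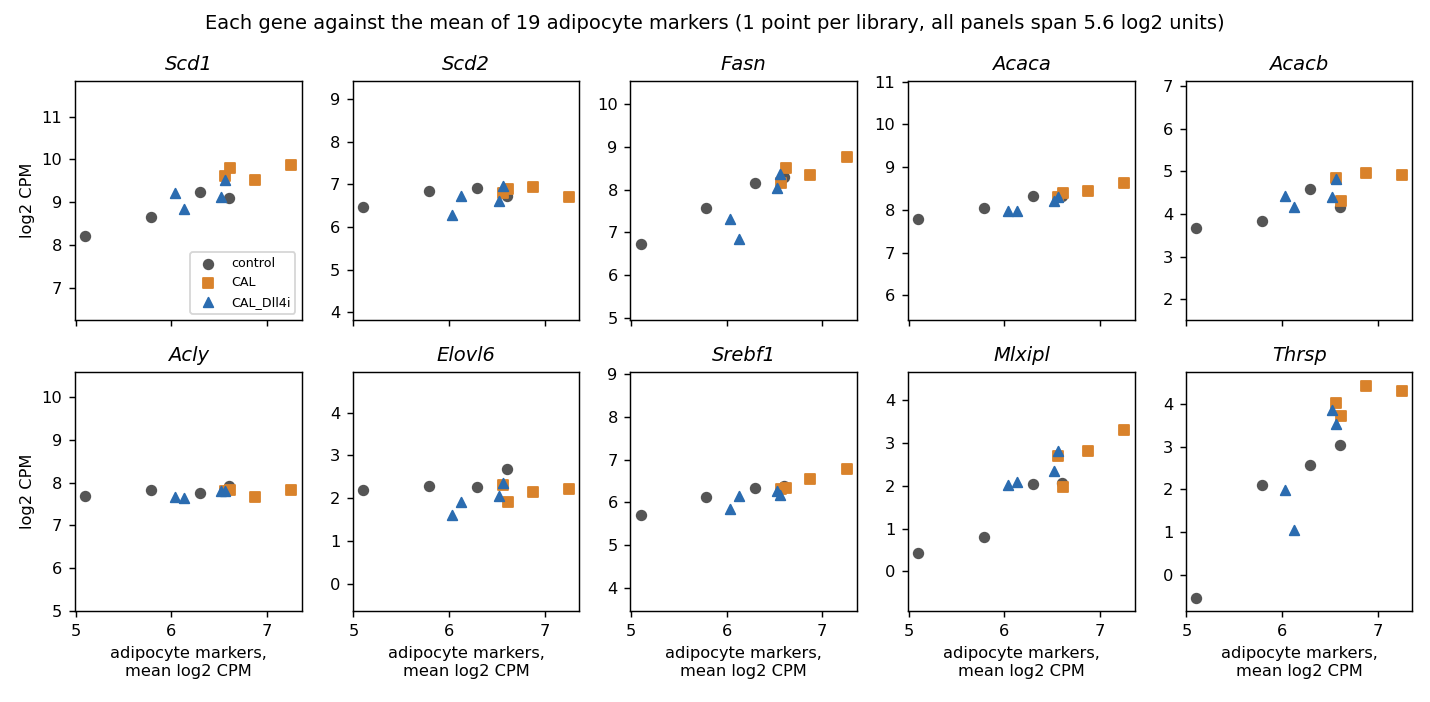
Log2 CPM of each gene (vertical axis, the same span in each panel) against the mean log2 CPM of 19 adipocyte markers (horizontal axis), 1 point per library. Points of Acaca, Srebf1, Mlxipl and Thrsp climb from control replicate 4 at 5.10 to CAL replicate 4 at 7.26, and those of Acly, Scd2 and Elovl6 stay nearly level.

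Relative to the adipocyte markers the members behaved differently. Scd1 stood 2.85, 2.87 and 2.86 log2 units above the marker mean in control, CAL and CAL_Dll4i (SD 0.25, 0.28 and 0.26). Acly stood 1.85 ± 0.58 units above it in control, 0.95 ± 0.32 in CAL and 1.42 ± 0.18 in CAL_Dll4i, and Elovl6 at -3.59 ± 0.50, -4.68 ± 0.32 and -4.33 ± 0.14 units relative to it (SD, n = 4 each). The marker mean was itself highest in CAL (6.83, against 5.95 in control and 6.31 in CAL_Dll4i). A gene of unchanged level therefore stands lowest in CAL on this scale by construction, which shows no fall of that gene. The CAL mean on this scale was the lowest of the 3 for 6 members (Acly, Acaca, Acacb, Scd2, Elovl6 and Srebf1). For Acaca it was 1.61 against 2.18 in control and 1.80 in CAL_Dll4i, and for Scd2 -0.003 against 0.79 and 0.33. It was the highest for Scd1, whose 3 means were within 1 SD of each other, and for Thrsp (-2.71 against -4.15 and -3.70). With the marker mean as a covariate, the log2 fold change of CAL against control was 0.38 ± 0.18 for Scd1, 0.34 ± 0.58 for Thrsp, 0.28 ± 0.25 for Mlxipl and 0.25 ± 0.22 for Acacb. It was -0.05 ± 0.06 for Acaca, -0.24 ± 0.26 for Fasn and -0.08 ± 0.09 for Srebf1, whose direction turned, and -0.51 ± 0.20 for Elovl6. None of the 10 passed by edgeR in this fit (adjusted p = 0.628 to 0.895, Elovl6 alone at an unadjusted p under 0.05).

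Among all other tested genes, those most like Fasn over the 12 libraries were Aldh1a7 (Pearson's r of log2 CPM 0.97), Pnpla3 (0.96), which encodes a lipid droplet protein, and Cdo1 (0.95), a cysteine dioxygenase. Most like Scd1 were its paralog Scd3 (0.97), Cidec (0.95), which promotes fusion of lipid droplets, and Ces1d (0.94), a carboxylesterase. Most like Mlxipl were Prr32 (0.96), Pck1 (0.95), which supplies glycerol 3-phosphate in fat cells, and Sctr (0.94), the secretin receptor. Cidec and Pck1 belong to the adipocyte markers above. These r were picked as the highest among all genes and carry no test. The split of reads between Scd1 and Scd3 is uncertain, as stated above. Among the members themselves, Acaca and Fasn (r = 0.96), Acaca and Srebf1 (0.94), Acacb and Mlxipl (0.94) and Fasn and Thrsp (0.92) were close, and Scd1 and Elovl6 were not (-0.02).

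Genes around the pathway were read from 6 lists, 57 genes of which 54 were tested. Pklr, Elovl2 and Elovl3 were missing from the table. edgeR called 0 of the 54 in each comparison (0.00539%, 0% and 0% of all genes). At an unadjusted p under 0.05, 10 of the 54 were higher and 4 lower in CAL than in control (7.01% and 7.57% of all genes). In CAL_Dll4i 2 were higher and 12 lower than in CAL (4.47% and 2.95% of all genes), and 0 were higher and 3 lower than in control (3.86% and 3.06%). DESeq2 called 4 higher in CAL than in control (Fads3, Scd3, Lpin1 and Nr1h3, against 1.99% of all genes), and voom called Fads3 and Scd3 (against 0.372%). The median log2 fold changes of the 54 were 0.02, -0.06 and -0.06.

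For the supply of citrate and acetyl-CoA (8 genes), 7 estimates were higher in CAL than in control (48.4% of all genes) and all 8 lower in CAL_Dll4i than in CAL (48.7%), at 2 and 4 of 8 with an unadjusted p under 0.05 (7.01% and 2.95% of all genes). Citrate synthase (Cs) had 227 ± 15.3, 255 ± 12.8 and 225 ± 6.70 CPM in control, CAL and CAL_Dll4i (SD, n = 4 each), and its CAL_Dll4i libraries lay below all CAL libraries (log2 fold change -0.18 ± 0.05, edgeR adjusted p = 0.659). Dlat, a pyruvate dehydrogenase subunit, differed by -0.18 ± 0.07 in that comparison (adjusted p = 0.659). The NADPH suppliers (6 genes) had 0 at an unadjusted p under 0.05 in each comparison. Pgd (-0.21 ± 0.12 in CAL against control, adjusted p = 0.424) and G6pdx (-0.13 ± 0.08 in CAL_Dll4i against control, 0.745), both of the pentose phosphate pathway, came nearest.

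Of the glucose genes (5 tested), Slc2a4, the insulin-responsive transporter GLUT4, had 7.04 ± 3.87 CPM in control, against 16.2 ± 4.27 in CAL and 9.39 ± 5.04 in CAL_Dll4i (SD, n = 4 each). Its CAL libraries lay above all controls (log2 fold change 1.20 ± 0.46, edgeR adjusted p = 0.281). In the libraries with muscle RNA, Slc2a4 stood at 17.1 and 13.1 CPM (CAL replicates 1 and 2) and 16.6 (CAL_Dll4i replicate 3). The other CAL libraries had 12.7 and 21.9 CPM, and the other CAL_Dll4i libraries 5.14 to 8.87. The part of muscle RNA in these values was not tested. Khk, ketohexokinase, differed by -0.26 ± 0.11 in CAL_Dll4i against CAL (adjusted p = 0.659). Within the SREBP pathway list (8 genes), Lpin1, a phosphatidate phosphatase that also restrains SREBP, was 0.43 ± 0.12 higher in CAL than in control on the log2 scale without overlap (edgeR adjusted p = 0.191, DESeq2 0.0364), and -0.39 ± 0.12 in CAL_Dll4i against CAL (edgeR adjusted p = 0.659). Mbtps2, the site-2 protease that frees SREBP from the membrane, differed by -0.16 ± 0.06 (adjusted p = 0.280) and 0.00 ± 0.06.

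Of 13 nuclear receptors and partners, Nr1h3 (LXR-alpha), an activator of Srebf1, differed by 0.46 ± 0.14 in CAL against control (edgeR adjusted p = 0.195, DESeq2 0.0412, no overlap) and by -0.38 ± 0.14 in CAL_Dll4i against CAL (edgeR adjusted p = 0.659). Pparg, the adipocyte master regulator, differed by 0.52 ± 0.19 (edgeR adjusted p = 0.256) and -0.47 ± 0.19 (0.659). Among 14 tested elongases and desaturases outside the members, Fads3 had 52.5 ± 11.4, 78.1 ± 10.4 and 62.0 ± 3.84 CPM and Scd3 7.21 ± 2.44, 12.7 ± 0.236 and 8.64 ± 2.11 CPM in control, CAL and CAL_Dll4i. Both were without overlap in CAL against control, by 0.57 ± 0.14 and 0.82 ± 0.22 on the log2 scale (edgeR adjusted p = 0.166 and 0.178). Both also lay below all CAL libraries in CAL_Dll4i (-0.33 ± 0.14 and -0.56 ± 0.22, edgeR adjusted p = 0.659 each). For Scd3 the uncertain split of reads from Scd1 applies here too.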

How the data were processed

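RNA-seq of 12 mouse fat grafts (3 groups of 4) was read from 1 deposited table. Per the labels' protocols RNA was extracted with Trizol and libraries used SureSelectXT RNA Direct reagents, which capture exonic sequence. Reads were processed with HISAT2 and StringTie on mm10, per the submitters' processing notes, without versions. The authors deposited estimated counts as unscaled whole numbers, so rounding changed none. The TPM deposited by the authors are scaled for transcript length and library size and were used to compare genes. The FPKM values deposited by the authors were not used in any result. Columns outside the 12 libraries numbered 0.

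Counts were scaled by TMM, filtered with filterByExpr and tested with edgeR 4.0.16 (R 4.3.3; robust quasi-likelihood test, 12 libraries in 1 fit), with Benjamini-Hochberg adjustment over 18551 genes and calls at 0.05. CPM are TMM-normalised, and log2 CPM use a prior count of 2. Ratios were compared by two-sided exact permutation over 70 arrangements, whose smallest p is 0.0286, and relations to adipocyte markers by 100000 permutations. As alternatives, RLE or upper-quartile scaling replaced TMM, the filter was dropped or set to 1 CPM in 4 libraries, and DESeq2 1.42.0 or voom (limma 3.58.1, sample weights) replaced edgeR. Others fitted 2 groups at a time, blocked on the replicate number, added an adipocyte marker covariate, left out each library in turn or took ratios from TPM. A covariate of Krt5 and Krt14 and leaving out the 3 libraries with Acta1 above 20 CPM were chosen after seeing the data.

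The members and lists were chosen with earlier results of these data known. Named genes are the 10 members, of each of 6 pathway lists the called genes or else the 2 with the smallest p, and for Fasn, Scd1 and Mlxipl the 3 most correlated genes. The code was tested on simulated counts. For CAL against control, edgeR recovered 41.7% of 1.5-fold and 58.0% of 2-fold changes, with 8 false calls. DESeq2 recovered 56.9% and 63.8% with 39 false calls, and voom 40.3% and 56.5% with 7. Figures used Python 3.11.15 and matplotlib 3.10.9. Positions come from RefSeq (GRCm38.p6) and overlaps from GENCODE vM21.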

Additional observations from a re-analysis of the deposited data

How the results depend on the processing

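Of 570 estimates of single members under the alternatives, 538 kept their direction and their side of the threshold, 4 passed where edgeR had not and 28 turned, of which 15 came from leaving out 1 library. The cause was not tested for any of them. edgeR called 0 of the 10 in each comparison under each of its scalings, filters and covariates and without each library in turn. In CAL against control DESeq2 called 3 members (616 genes in all) and voom with sample weights 1 (88 genes), against 1 gene by edgeR. With voom Acaca was 0.0069 in CAL_Dll4i against control. With the adipocyte covariate CAL against control was -0.054 for Acaca, -0.24 for Fasn, -0.10 for Scd2 and -0.077 for Srebf1, and CAL_Dll4i against CAL was 0.015 for Acly, 0.0089 for Elovl6 and 0.24 for Mlxipl. With the Krt5 and Krt14 covariate Mlxipl was 0.10 in CAL_Dll4i against CAL, and Acaca 0.029, Fasn 0.070 and Srebf1 0.013 in CAL_Dll4i against control. Without the 3 libraries with muscle RNA Acly was 0.025 in CAL against control. Leaving out 1 library at a time gave -0.057 to 0.023 for Acly and -0.0038 to 0.14 for Scd2 in CAL against control. In CAL_Dll4i against control it gave -0.12 to 0.048 for Acaca, -0.32 to 0.17 for Fasn, -0.20 to 0.023 for Scd2 and -0.16 to 0.040 for Srebf1. The Scd1 to Scd2 ratio of CAL against control ranged from 0.70 to 0.92 (exact p 0.0286 to 0.0571), and the Acaca to Acacb ratio from -0.11 to 0.10 in CAL_Dll4i against CAL and from -0.52 to -0.35 in CAL_Dll4i against control (exact p 0.0286 without control replicate 1).

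Replicate numbers did not pair the samples: deviations of same-numbered libraries correlated at -0.39 to 0.14, with 2 of 12 pairs over 0.1. With the number as a replicate block edgeR called 0 members in each comparison, and the Scd1 to Scd2 difference of 0.81 had a sign-flip p of 0.125, the smallest that 4 pairs allow. At these depths counting error was small beside the spread between libraries.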

Other observations

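Other genes close to single members over the 12 libraries are given as values with no test, and were picked after their values were seen. Pnpla3, which was named above for its likeness to Fasn, was also the gene most like Thrsp (Pearson's r of log2 CPM 0.98, and 0.98 with group means removed). Hcar1, the lactate receptor of adipocytes, was the gene most like Srebf1 (0.98), and Slc25a10, the mitochondrial dicarboxylate carrier, the gene most like Acaca (0.98). Acly was most like Cyp51, a sterol demethylase (0.94, and 0.95 with group means removed). All 12 points share library preparation and scaling.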
